A study of Mus musculus with 4 samples.

Results

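Runx3 binding was examined at the Hox genes of splenic CD4+ DC. The genes were the protein-coding genes of the GENCODE M1 annotation (mm9) whose symbols are Hoxa, Hoxb, Hoxc or Hoxd followed by a digit. Described here are 38 of 22227 protein-coding genes, with Hoxa3 listed under 2 identifiers and counted as 1 gene. A peak was counted at a gene when its centre lay in the gene body or within 10 kb of a TSS of any of its transcripts. By this rule 6 of the 15121 Runx3 peaks (0.0397%) lay at these Hox genes. Of the 6, 1 was counted at Hoxa2 alone and is not described further, and the values of single peaks are those of the other 5.

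The peaks come from CD11chiMHCII+CD4+ DC that were freshly sorted from spleens of about 15 mice. The mice carried no stated genetic change. Their strain is labelled C57BL/6, except for the second control sample, which is labelled C57BL/7. Chromatin was precipitated with a home-made polyclonal anti-Runx3 antibody in 2 samples, and whole cell extract chromatin was the control in 2 samples. The deposited list is a single MACS2 call of both precipitates against both controls, so no peak has a value per replicate and no spread between replicates can be given. MACS2 gives each peak a score that rises with the strength of the signal, here 1.33 to 309 with a median of 12.1 and an upper quartile of 23.2. Its scale is unstated, so it served only to rank and compare peaks within the list. The list measures no expression, so the labelled cell type could not be checked against marker genes, and the levels of the Hox transcripts are not known from these data.

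Hox genes encode homeodomain transcription factors that give cells of the embryo their position along the body axis. In mammals they lie in 4 clusters, named A to D, and genes of the same number in different clusters are paralogs that descend from the same ancestral gene. In blood, Hox genes such as Hoxa9 are active in stem and progenitor cells and are switched off as cells mature, and the balance between Polycomb repressors and MLL activators sets their state. Runx3 is a RUNX factor that binds DNA with its partner CBFβ, and TGTGGT is the core of the RUNX motif.

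Runx3 peaks were found in clusters A and D, and none was called in clusters B and C. Peaks 1 and 2 lay in Hoxa7, peak 3 upstream of Hoxd10, peak 4 between Hoxd9 and Hoxd8, and peak 5 between Hoxd3 and Hoxd1. The strongest of the 5 was peak 5, with a score of 58.0.

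The sequences of the 5 peaks are shown because they carry the binding at these genes. They are read 5′ to 3′ on the plus strand of NCBIM37, the assembly of mm9, and the Hoxa genes lie on the minus strand. Peaks 3 and 5 are shown by the 300 bases around their centres. Annotated untranslated exon parts of Hox genes are left out apart from a site of 30 bases in peak 1. In peaks 1, 3, 4 and 5 capitals mark TGTGGT, which reads ACCACA where it lies on the minus strand. Peak 2 holds no TGTGGT, and its capitals mark the 1 match of the peak to the looser pattern TGNGGT, with N for any base.
Peak 1, chr6:52168004-52168033, Hoxa7 exon 2: aaactggaaccaTGTGGTtcgaataaagtc
Peak 2, chr6:52171854-52171997, upstream of Hoxa7: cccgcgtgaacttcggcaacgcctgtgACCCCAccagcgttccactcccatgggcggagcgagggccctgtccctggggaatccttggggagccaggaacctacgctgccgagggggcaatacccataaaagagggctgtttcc
Peak 3, chr2:74528171-74528470, upstream of Hoxd10: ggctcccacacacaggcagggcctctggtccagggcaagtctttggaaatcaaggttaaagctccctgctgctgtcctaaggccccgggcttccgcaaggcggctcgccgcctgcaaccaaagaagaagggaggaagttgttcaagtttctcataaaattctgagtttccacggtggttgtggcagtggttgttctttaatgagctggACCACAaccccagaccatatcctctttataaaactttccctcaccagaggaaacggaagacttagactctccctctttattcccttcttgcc
Peak 4, chr2:74540397-74540656, between Hoxd9 and Hoxd8: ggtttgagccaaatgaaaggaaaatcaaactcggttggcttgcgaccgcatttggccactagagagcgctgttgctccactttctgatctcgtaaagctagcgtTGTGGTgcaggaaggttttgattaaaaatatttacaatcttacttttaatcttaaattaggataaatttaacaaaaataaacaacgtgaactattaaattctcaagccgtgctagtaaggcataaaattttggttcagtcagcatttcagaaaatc
Peak 5, chr2:74587297-74587596, between Hoxd3 and Hoxd1: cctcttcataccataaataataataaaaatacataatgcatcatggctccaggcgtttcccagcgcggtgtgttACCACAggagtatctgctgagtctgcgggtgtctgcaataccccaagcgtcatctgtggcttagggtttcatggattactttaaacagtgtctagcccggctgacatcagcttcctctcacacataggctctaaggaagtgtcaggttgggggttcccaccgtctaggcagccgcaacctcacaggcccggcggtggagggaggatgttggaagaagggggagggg

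**Figure D1:**
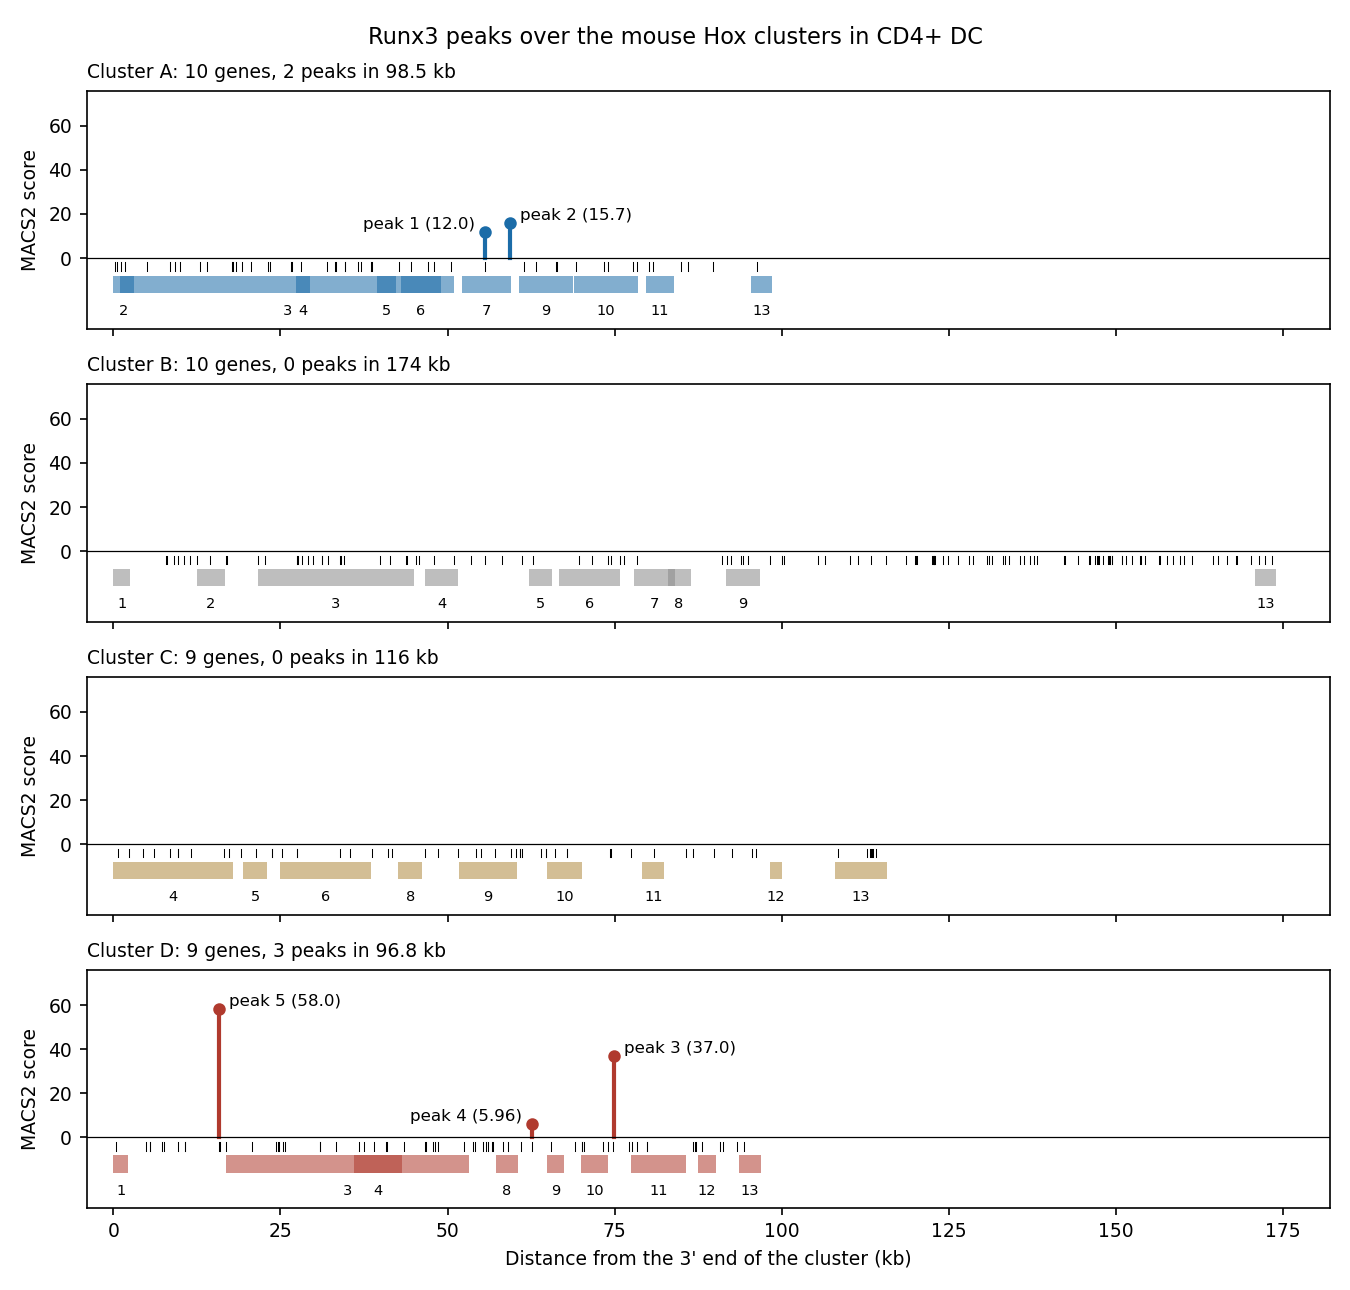
Runx3 peaks over the 4 Hox clusters, with the distance from the 3′ end of the genes shown for each cluster in kb on the horizontal axis and the MACS2 score on the vertical axis. Stems are peaks with their scores, boxes are Hox gene bodies with the paralog group below, darker boxes are overlapping genes, and ticks are TGTGGT on either strand. The 5 peaks stand in clusters A and D, while TGTGGT is spread over all 4 clusters.

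Of the 38 Hox genes 10 had a peak (26.3%), against 40.0% of all protein-coding genes. At a distance of 20 kb the shares were closer, with 16 Hox genes (42.1%) against 47.0%. At 5 kb they lay further apart, with 7 Hox genes (18.4%) against 35.9%. Since Hox genes lie close together, the 6 peaks made 15 pairs of a gene and a peak, and 5 genes had 2 peaks. The genes are therefore not independent of each other, and no test was run on this count. Within 1 kb of a TSS a peak was found for 2 Hox genes (5.26%), Hoxa7 and Hoxd10, against 25.0% of all protein-coding genes. A peak with a score at or above the upper quartile was found for 4 Hox genes (10.5%), all in cluster D, against 14.0%. At the edge of the rule, peak 4 lay 9460 bp from a TSS of Hoxd3 and was counted there, while peak 2 lay 10396 bp from the nearest TSS of Hoxa6 and was not.

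The genes of cluster A described here lie on chromosome 6 from 52112350 to 52210874, 10 of them, on the minus strand. Peaks were counted at 5 of them, Hoxa2, Hoxa3, Hoxa6, Hoxa7 and Hoxa9. Hoxa2 patterns the hindbrain and the second pharyngeal arch.

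Peaks 1 and 2 lay in Hoxa7, for which the annotation gives 5 different TSS. Peak 2, from 52171505 to 52171997, covers the 5′-most of them and is centred 102 bp inside it, in the untranslated first exon of 1 transcript. It scored 15.7, at the percentile 61.0. Peak 1, from 52167791 to 52168125, is centred 454 bp upstream of an inner Hoxa7 TSS, in exon 2 of the longest protein-coding transcript, where that exon is untranslated. It scored 12.0, at the percentile 49.9, so both Hoxa7 peaks stood near the middle of the list.

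By distance these peaks were also counted at neighbours of Hoxa7. For Hoxa9, which is known for its role in haematopoietic progenitors and myeloid leukaemia, the nearer was peak 2, at 4399 bp from a TSS. For Hoxa3 the nearer was peak 1, at 4620 bp, and for Hoxa6 peak 1 lay at 6603 bp. Peak 2 also lay 8413 bp from the miRNA gene Mir196b, which lies inside the annotated body of Hoxa9. The other genes of the cluster had no peak in reach, and the nearest peak lay 11.6 kb from a TSS of Hoxa10, 13.4 kb from Hoxa5, 24.0 kb from Hoxa11, 26.2 kb from Hoxa4 and 39.0 kb from Hoxa13. Both described peaks of the cluster thus lay in Hoxa7. The 5′ genes Hoxa10, Hoxa11 and Hoxa13, which take part in patterning the limb and the urogenital tract, were without one.

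Cluster D spans chromosome 2 from 74506367 to 74603200, with 9 genes on the plus strand. Peaks were counted at 5 of them, Hoxd3, Hoxd8, Hoxd9, Hoxd10 and Hoxd11. Unlike peaks 1 and 2, which were centred in Hoxa7, all 3 peaks of cluster D were centred between Hox genes. Peak 3 (74528071 to 74528571) stands before Hoxd10, 826 bp from its TSS, in intron 2 of the noncoding gene Gm20440. Its score of 37.0 was at the percentile 87.5. This peak was also counted at Hoxd9 and Hoxd11, at 7416 bp and 7832 bp from their TSS. Hoxd9 to Hoxd13 take part in patterning the limb, together with 5′ genes of cluster A.

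Peak 4 (74540397 to 74540656) stands 2146 bp before a TSS of Hoxd8 and scored 5.96, at the percentile 17.7. It was the narrowest of the 5, with 260 bp. Peak 5, from 74587118 to 74587776, was the widest, with 659 bp, and its score of 58.0 was at the percentile 95.0, rank 739 of the list. It is centred in exon 1 of a transcript of the noncoding gene 6720416L17Rik, 1116 bp inside the nearest TSS of that gene, which runs antisense to the Hox genes. The nearest Hox TSS were the 3′-most one of Hoxd3, 3716 bp upstream of the peak, and that of Hoxd1, 13.6 kb downstream. Hoxd1 therefore had no peak under the 10 kb rule, although a strong peak stood between it and Hoxd3. Hoxd4, Hoxd12 and Hoxd13 had none either, with the nearest peak at 19.5 kb, 15.3 kb and 22.0 kb, and the miRNA gene Mir10b, inside the annotated body of Hoxd4, lay 23.3 kb from one.

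**Figure D2:**
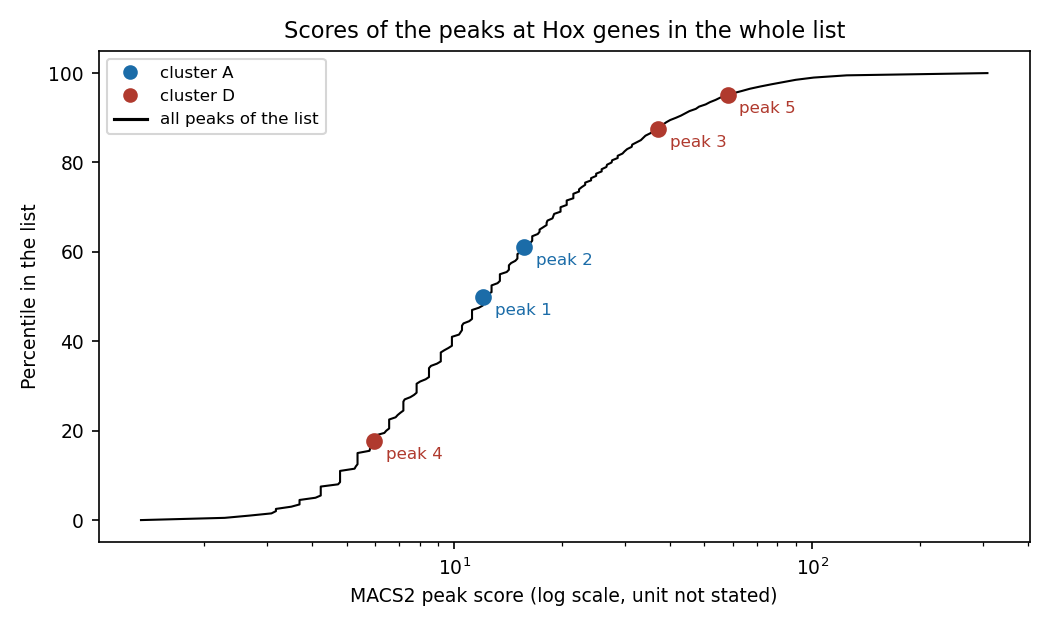
Scores of the 5 peaks at Hox genes on the cumulative distribution of all peaks, with the MACS2 score on a log axis and the percentile in the list on the vertical axis. Peaks 5 and 3 of cluster D lie at the percentiles 95.0 and 87.5, peaks 1 and 2 of cluster A nearer the middle, and peak 4 of cluster D at 17.7.

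The median score of the 5 peaks was 15.7, against 12.1 in the whole list. Of the 5, 3 scored at or above the list median and 2 at or above the upper quartile. Peaks within 1 kb of any annotated TSS had a median score of 12.4, against which Hoxa7 had 12.0 and 15.7, and Hoxd10 had 37.0. As a group the 5 peaks were of mixed strength, and the strongest 2 were both between genes of cluster D.

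Cluster B spans chromosome 11 from 96055630 to 96229570 and has 10 genes, Hoxb1 to Hoxb9 and the distant Hoxb13, all on the plus strand. No peak was called in its 174 kb or within 100 kb on either side. The nearest peaks were centred at 95937149 on the Hoxb13 side and at 96515368 on the Hoxb1 side, so the cluster lay in a stretch of 578 kb without a peak centre. Such a stretch is long but not rare. It was rank 912 of the 15101 distances between neighbouring peak centres, and 31.8% of all protein-coding genes lay in stretches at least as long. The distance from a TSS to the nearest peak rose from 118 kb for Hoxb13 to 288 kb for Hoxb1, and 15.8% of protein-coding genes were at least as far from a peak as Hoxb1. Chromosome 11 as a whole was not poor in peaks, with 10.1 per Mb of sequence, against 5.91 over the genome.

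Cluster C spans chromosome 15 from 102751534 to 102867274 and has 9 genes, Hoxc4 to Hoxc13. It held no peak in 116 kb. A pair of weak peaks lay just outside, 15.2 kb and 16.6 kb beyond the 3′ end of Hoxc4, with scores of 5.96 and 6.85. The first of these was 17.6 kb from the nearest TSS of Hoxc4 and was the nearest peak to every gene of the cluster, up to 131 kb for Hoxc13. Each of the pair holds 1 TGTGGT. The miRNA genes of clusters B and C were without a peak as well, with the nearest one at 241 kb from Mir10a, 189 kb from Mir196a-1, 78.7 kb from Mir196a-2 and 37.1 kb from Mir615.

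**Figure D3:**
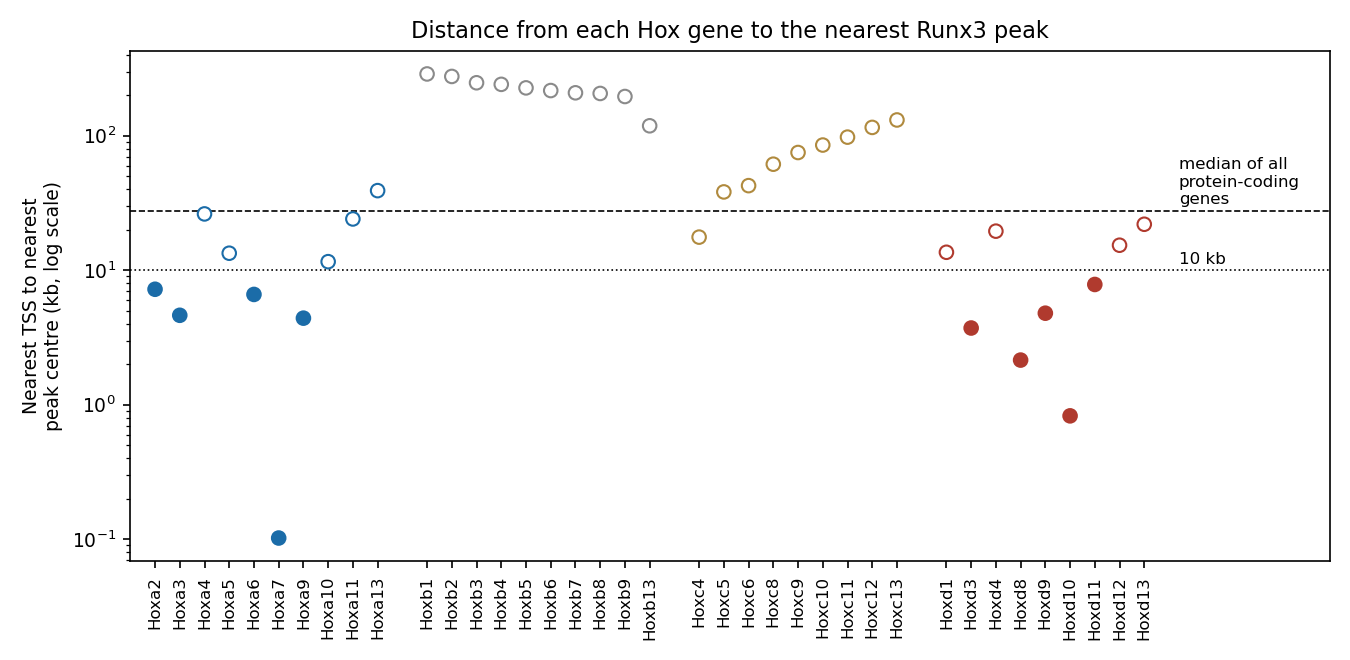
Distance in kb, on a log axis, from each of the 38 Hox genes to the nearest Runx3 peak centre, measured from the TSS closest to a peak. Filled points are the 10 genes with a peak under the rule, open points the other 28, and lines mark 10 kb and the median of all protein-coding genes, 27.7 kb. Genes of cluster B lie between 118 and 288 kb, and those of clusters A and D lie below 40 kb.

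The absence of a peak in clusters B and C has to be read against their length. The 2 clusters, put together as those without a peak, cover 290 kb. A count of 0 there allows up to 10.4 peaks per Mb. This takes 3 peaks as the approximate one-sided 95% limit of a count of 0. The territory of all protein-coding genes, their bodies plus 10 kb around each TSS, held 9.91 peaks per Mb, at which 2.87 peaks would lie in the 290 kb. The upper limit for clusters B and C thus includes the density of gene territory in general. The territory of the 38 Hox genes as a whole, 498 kb, held 12.0 peaks per Mb (exact Poisson 95% interval 4.42 to 26.2, which covers counting error only), an interval that includes the 9.91 of all protein-coding genes. The 12.0 of Hox territory was thus not below the 9.91, but its interval allows lower densities as well. The share of Hox genes with a peak was 18.4% against 35.9% at 5 kb, 26.3% against 40.0% at 10 kb and 42.1% against 47.0% at 20 kb. Hox territory holds 38 genes in 498 kb, and that of all protein-coding genes 22227 in 1183776 kb. Density by length and share of genes are therefore unlike measures here.

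Of the clusters without a peak, B had the highest and C the lowest density of RUNX hexamers among the 4. TGTGGT occurs 125 times in cluster B, or 0.719 per kb, against 50 times (0.507 per kb) in A, 56 times (0.484 per kb) in C and 65 times (0.671 per kb) in D. The genome has 0.774 per kb. Of the 296 hexamers in the 4 clusters 5 lay in a peak (1.69%), and of all hexamers of the genome 0.620% did. Clusters A and D had a higher ratio of observed to expected CpG, 0.480 and 0.460, than clusters B and C, 0.349 and 0.357. Their G and C content was similar, between 48.9% and 50.0%. Whether CpG content has a part in the difference was not tested.

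Peaks fell at some members of a paralog group and not at others. Groups 3 and 9 had a peak at 2 members each, Hoxa3 with Hoxd3 and Hoxa9 with Hoxd9. No peak was centred in these 4 genes, and their nearest peaks lay 3716 to 4789 bp from a TSS. Hoxa3 and Hoxa9 were counted with the same peaks 1 and 2, which lay in Hoxa7. With no peak in clusters B and C, no group could have more than 2 members with one. The pairs therefore follow in part from the 10 kb window and the cluster. Groups 4, 5, 12 and 13 had none. Group 4, with all 4 paralogs Hoxa4, Hoxb4, Hoxc4 and Hoxd4, and group 13, with Hoxa13, Hoxb13, Hoxc13 and Hoxd13, were the 4-member groups without any peak. Hoxb4, a gene used to expand blood stem cells in culture, lay 241 kb from a peak.

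TGTGGT was present in 4 of the 5 peaks, against 54.0% of all peaks (Wilson 95% interval 53.2% to 54.8%). All 3 peaks of cluster D and peak 1 held it, at 23 to 74 bp from the peak centre, and peak 5 had a further one 231 bp from its centre. Of all peaks 41.8% held it within the 200 bp around the centre, as these 4 did. Peak 2, over the 5′-most start of Hoxa7, held none, and the nearest hexamers outside it were 1777 and 3483 bp away. With TGNGGT all 5 peaks had a match, and so did 81.7% of all peaks.

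The ETS hexamer AGGAAG, the core site of a factor family with many members in myeloid cells, was found in all 5 peaks and in 61.7% of the list. In peaks 2, 3 and 4 it lay within 17 bp of the centre. In peak 4 the 2 hexamers are almost next to each other, with TGTGGT at 74540501 and AGGAAG at 74540509. Peak 5 has AGGAAG at 74587481 and 74587504. TGACGT, the core site of zDC (Zbtb46), a zinc finger factor of conventional DC, was in 0 of the 5 peaks and 11.0% of the list, the AP-1 site TGANTCA in 0 and 13.2% and the PBX-HOX site TGATTNAT in 0 and 4.14%. The 3 absences say only that these letters do not occur in the 5 windows.

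The 5 peaks had a ratio of observed to expected CpG between 0.634 and 0.927, and the median of all peaks was 0.316. The ratio was highest in peak 4, which was at the same time the poorest in G and C, with 36.5%, and peak 2 had 61.9%. The whole sequence of the 4 clusters, at 0.349 to 0.480, was above this median as well.

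Hox promoters were compared with other promoters of like composition. A promoter, here 500 bp on each side of the 5′ end of the gene, was called CpG-rich with a CpG ratio of at least 0.6 and a G and C content of at least 50%. This held for 18 Hox genes (47.4%) and 44.3% of all protein-coding genes. Of the 18, 1 had a peak within 1 kb of a TSS, Hoxa7 (5.56%), against 43.2% of all protein-coding genes with such a promoter. Under the wider rule 5 of the 18 (27.8%) had a peak, against 59.3%. Of the other 20 Hox genes 1 had a peak within 1 kb, Hoxd10, and of all genes without a CpG-rich promoter 10.5% did. Peaks near the TSS of genes with CpG-rich promoters had a median score of 12.7.

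RUNX hexamers were also counted in the Hox promoters. TGTGGT occurred in 12 of the 38 promoters (31.6%), against 42.1% of all promoters and 31.2% of those rich in CpG. Of the 15 hexamers in Hox promoters 0 lay inside a peak. Of the 5 described peaks only peak 2 overlapped a Hox promoter, and it holds no TGTGGT, so the 0 follows from that peak. The share of such hexamers inside peaks over all promoters is not given here. The hexamers within 100 bp of the 5′ end of a Hox gene are shown in windows of 30 bases, as RUNX sites without a peak. They lie 23 bp inside Hoxb6, 46 bp upstream of Hoxc6, 76 bp inside Hoxd10 and 94 bp inside Hoxa10, and capitals mark the hexamer on the plus strand of NCBIM37.
Hoxb6, chr11:96153799-96153828: attcttttggacACCACAcctaggtcggag
Hoxc6, chr15:102828628-102828657: tgaactttttatTGTGGTttgtccgttccg
Hoxd10, chr2:74529209-74529238: caaaggtcagggTGTGGTtactctcagagt
Hoxa10, chr6:52190745-52190774: gacgggtttacgACCACAttgtcacagcca
Hoxc9 had 3 hexamers in its promoter and Hoxb2 had 2, and neither had a peak, with the nearest one 75.0 kb and 276 kb away.

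The nearest 2 protein-coding genes on each side of a cluster were counted by the same rule. A peak was found for 8 of the 16, and for 40.0% of all protein-coding genes. Next to cluster A lies Skap2, which encodes an adaptor of integrin signalling in leukocytes. It had 4 peaks, the strongest with a score of 47.3 in its intron 1, 151 kb from the nearest gene described here. On the other side Evx1, a homeobox gene derived from the same ancestral cluster, had none, with the nearest 91.7 kb away. Snx10 and Hibadh, the other neighbours of cluster A, had 2 each, with highest scores of 15.0 and 12.0. Beside cluster B, Skap1, the T cell relative of Skap2, had a single peak of 15.0, and Snx11 had 2, with a highest score of 75.1, while Ttll6 and Calcoco2 had none. Beside cluster C, Calcoco1 had 1 peak of 12.0 and Cbx5 1 peak of 18.1, and Gm17649 and Smug1 had none. Beside cluster D, Hnrnpa3 had 2 peaks, with a highest score of 29.5, and Mtx2 had none. Evx2 and Lnp had none either, but a strong peak lay in the interval between them, 62.0 kb from Hoxd13, with a score of 51.5 and 2 copies of TGTGGT. Within 500 kb outside the genes described here lay 12 peaks around A, 16 around B, 14 around C and 1 around D. The 12 include the peak counted at Hoxa2. Cluster D thus held the 2 highest scores of the Hox peaks and had the fewest peaks around it.

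Other patterning homeobox and paired box genes were counted in 2 lists, apart from the TALE class. Of 64 genes of other patterning families, such as the Dlx, Nkx, Lhx, Irx and Pax genes, 5 had a peak (7.81%), and 0 had one within 1 kb of a TSS. For all protein-coding genes the shares were 40.0% and 25.0%. Of the 64 genes 75.0% have CpG-rich promoters. Among all genes with such promoters 59.3% had a peak and 43.2% had one within 1 kb. The 5 with a peak were Lhx4, Pax2, Pax5, Pitx3 and Six5, with a highest score of 32.3 at Pax2. Of the 13 homeobox genes nearest to the Hox clusters by descent or role, the Evx, Cdx, Gsx, Gbx, Meox, Mnx1 and Pdx1 genes, 2 had a peak (15.4%), Gbx2 with a score of 6.57 and Gbx1 with 2.84. Peak density was 3.37 per Mb (exact Poisson 95% interval 1.35 to 6.94) in the territory of the 64 genes. All protein-coding genes had 9.91, and the difference was not tested. The Hox genes had 12.0 (4.42 to 26.2). The 2 intervals overlap, which does not show that the densities are alike, and no test was run between them.

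The TALE class and the lists of Polycomb repressors and MLL activators had a peak at 51.9% to 75.0% of their genes, against 40.0% of all protein-coding genes. Their promoters were also more often CpG-rich, at 68.8% to 77.8%, and of all genes with a CpG-rich promoter 59.3% had a peak. The share was 51.9% for the Polycomb repressors, 63.6% for the TALE class and 75.0% for the MLL activators. By length, TALE territory held 11.0 peaks per Mb (exact Poisson 95% interval 6.14 to 18.1), an interval that includes the 9.91 of all protein-coding genes. Polycomb territory held 16.5 (10.3 to 25.0) and MLL territory 18.1 (11.6 to 27.0), against the same 9.91. These intervals cover counting error only and take peaks as independent, although Aff1 alone had 6. The 9.91 is not matched for CpG-rich promoters, and the difference was not tested. The TALE class, whose MEIS and PBX proteins bind DNA together with Hox proteins, had a peak at 7 of 11 genes and within 1 kb of a TSS at 6. Meis1 had 5 peaks, the strongest with a score of 34.9, and Tgif1 had 3, the strongest with 23.2. Pbx2, Pbx3, Pbx4, Pknox1 and Tgif2 had peaks with scores of 9.84 or less. Of the 27 Polycomb repressors 14 had a peak, and the highest scores were 62.0 at Ring1, 51.5 at Phf19 and 38.1 at Mtf2. Eed, a core subunit of the enzyme complex that methylates histone H3 at Hox genes, had 2 peaks, with a highest score of 24.9, and the nearer was centred 3 bp from a TSS. Of the 16 MLL activators found in the annotation 12 had a peak, with the highest scores of 59.1 at Dot1l, 35.2 at Rbbp5 and 24.9 at Kdm6b. Mll1, the histone methyltransferase that keeps Hox genes active in blood progenitors, had 1 peak of 16.3.

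**Figure D4:**
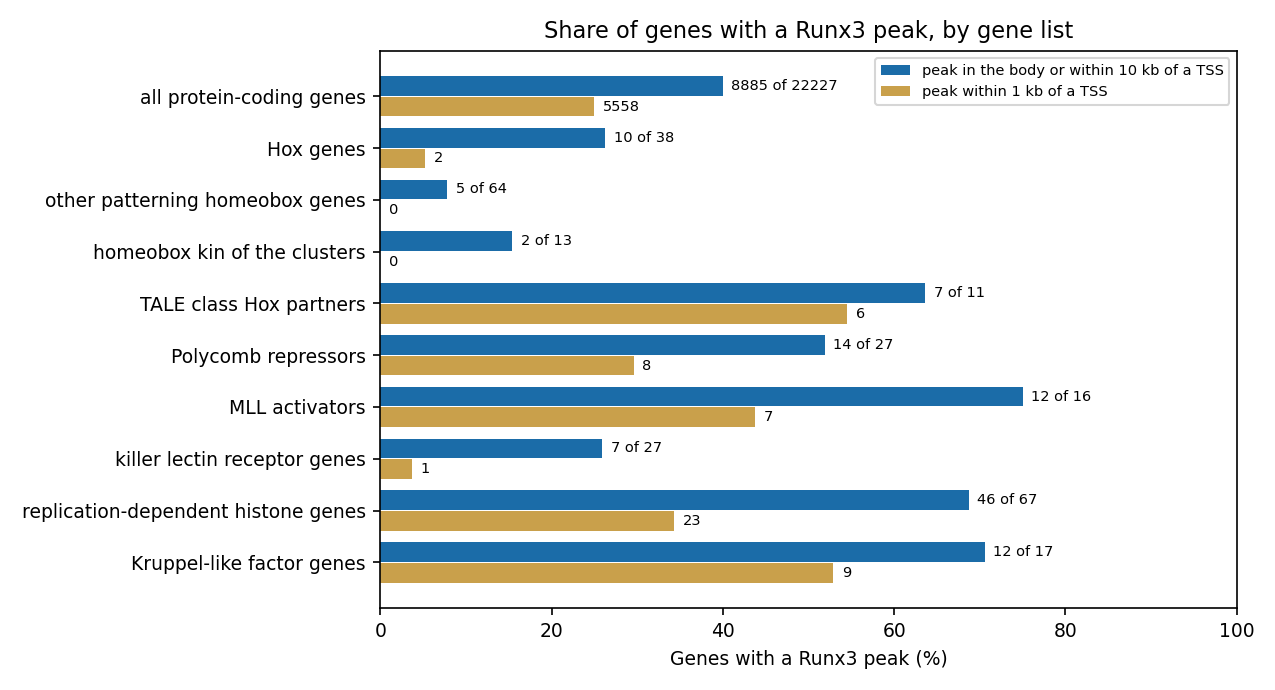
Percent of the genes of each list with a Runx3 peak in the gene body or within 10 kb of a TSS (blue) and within 1 kb of a TSS (yellow), with the number of genes beside each bar. Hox genes, at 26.3% and 5.26%, lie below all protein-coding genes, at 40.0% and 25.0%, and above the other patterning homeobox genes, at 7.81% and 0%.

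Other clustered genes were counted by the same rule. Of 67 replication-dependent histone genes 46 (68.7%) had a peak, against 40.0% of all protein-coding genes. These 46 shared 27 peaks, at 53.8 per Mb (exact Poisson 95% interval 35.4 to 78.2), against 9.91 for all protein-coding genes. Of 27 killer lectin receptor genes 7 (25.9%) had a peak, with 10.6 per Mb (4.57 to 20.9). The Hox genes had a peak at 26.3% and 12.0 per Mb (4.42 to 26.2). CpG-rich promoters were found for 47.4% of Hox, 3.70% of killer lectin receptor and 74.6% of histone genes. Of all genes with a CpG-rich promoter 59.3% had a peak. Kruppel-like factor genes, which are not clustered and of which many are expressed in immune cells, had a peak at 12 of 17 (70.6%). Their promoters were CpG-rich at 76.5%, and their territory held 27.0 peaks per Mb (17.5 to 39.8). No test was run between the lists.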

How the data were processed

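Runx3 ChIP-seq was done on sorted splenic CD4+ DC, with 2 precipitates and 2 controls. The authors mapped reads of 50 bp, from fragments of about 300 bp, to unique positions of mm9 using Bowtie, and MACS2 compared both precipitates with both controls in 1 call. CASAVA 1.8 is named in the submitters' processing notes. Versions of Bowtie and MACS2, the threshold and the treatment of duplicate reads are not given in the sources used here. The deposited peak score is used as MACS2 wrote it, in an unstated unit. The depth per sample is not analysed here. A region too weak for that depth would be missing from the list, so a missing peak means only that none was called.

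Peak centres were assigned to GENCODE M1 genes (1 record per symbol, chromosome and strand) on mm9, with positions counted from 1. Patterns were searched on both strands of NCBIM37. Exon and intron numbers are those of the longest protein-coding transcript, or of the longest transcript covering the peak where that one did not. The list holds no replicate values, so no test was run, and counts stand beside those of all protein-coding genes or all peaks. Assignment and pattern search were tested on simulated data.

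The Hox genes and the gene lists were chosen with earlier results of these data known. A further Hox gene and the peak beside it are not reported here. Klraq1, which the symbol rule took in, is no killer lectin receptor gene and was left out of that list after its value was seen. Named genes were all other Hox genes, the nearest 2 protein-coding genes on each side of a cluster, miRNA and noncoding genes inside the clusters, and list members with a peak. Of these, Eed and Mll1, and the promoter hexamers shown, were singled out after their values were seen. Alternatives were other score limits, distances, TSS sets, overlaps, joined peaks, patterns and CpG limits. Calculations were run in Python 3.11.15 with numpy 2.4.6 and pandas 2.3.3, intervals came from scipy 1.17.1, and plots from matplotlib 3.10.9.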

Additional observations from a re-analysis of the deposited data

How the results depend on the processing

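Keeping only peaks that scored no lower than the list median left 3 peaks at 7 Hox genes (18.4%), and 5561 protein-coding genes with a peak (25.0%). Keeping only those from the upper quartile up left 2 peaks at 4 Hox genes (10.5%), and 3104 protein-coding genes (14.0%). At that limit Hox territory held 4.01 peaks per Mb, and that of all protein-coding genes 2.48. Cluster A then had no gene with a peak. A distance of 20 kb gave 16 Hox genes (42.1%, against 47.0% of all), among them Hoxc4, the first of cluster C. With the stricter CpG limits of 0.75 and 55%, 7 of 38 Hox promoters were CpG-rich, against 5552 of 22227 for all protein-coding genes. Neither Hoxa7 nor Hoxd10, the Hox genes with a peak within 1 kb, was among the 7. Of all genes within these limits 44.8% had such a peak. Cluster B had no gene with a peak under any of the 8 alternatives for assignment, and cluster C had none except at 20 kb. A limit of 5 kb, any base of the peak, the gene body left out, 1 TSS per gene or joined peaks gave 7 to 10 Hox genes and 5 or 6 peaks. At 5 kb the share was 18.4% of Hox genes against 35.9% of all. Under the others it was 23.7% to 26.3% against 36.7% to 40.2%. TGTGGT counts stayed at 4 of 5 except with the looser TGNGGT, and the median score stayed at 15.7. Leaving out a replicate was not possible, since the list pools them. No paired analysis was possible because the result comes from 1 pooled list without a test. The absence of a peak is limited by a depth that is not analysed here.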
